A study of Rattus norvegicus with 7 samples.

Results

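The 6 miRNAs described here, rno-miR-17-5p, rno-miR-18a, rno-miR-20a, rno-miR-20b-5p, rno-miR-93 and rno-miR-106b (written below without the rat prefix), are the miR-17 and miR-18 seed members of the miR-17-92 cluster and its paralogs that the array covered in the rat. They were chosen by name among the 677 rat miRNAs of the array, and the opposite strands of their hairpins were left out. Islet RNA came from male Wistar rats that had received no treatment named in the labels, 4 of them 12 months old (replicates 2, 4, 10 and 16) and 3 of them 3 months old (replicates 9, 11 and 13). Islets of both ages had been isolated with collagenase, their RNA labelled with Cy3 and hybridised to an Agilent single-colour miRNA array, with 1 array per rat. The comparison asks which miRNAs of the islet differ in level between these ages. An islet preparation is a mixture of endocrine cells with vessels, stroma, blood cells and remnants of exocrine tissue.

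MicroRNAs are short RNAs that guide a silencing complex to mRNAs, mainly through the seed near their 5′ end, and lower the stability and translation of those mRNAs. The miR-17 family is transcribed from clusters under the control of MYC and E2F factors and is best known for promoting proliferation and survival. Its known targets include the cell-cycle inhibitor Cdkn1a and the pro-apoptotic Bcl2l11. The clusters also encode miR-19 and miR-25/92 members, which have other seeds and other targets.

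The mature sequences are shown because the members differ by only a few bases, which bears on how well probes can separate them. They were taken from RefSeq (rat build GRCr8), where 2 of the 6 matched under the exact array name and the others with -5p added. Capitals mark the seed, bases 2 to 8 from the 5′ end.
miR-17-5p: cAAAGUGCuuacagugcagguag
miR-20a: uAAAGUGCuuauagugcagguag
miR-20b-5p: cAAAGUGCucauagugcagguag
miR-93: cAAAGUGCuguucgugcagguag
miR-106b: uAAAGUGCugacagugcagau
miR-18a: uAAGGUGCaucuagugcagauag

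Of the 6 members, all but miR-18a share 1 seed, and miR-18a has the other. None of the other RefSeq rat miRNA names used here carried either seed (0 outside the members). Any pair of miR-20a, miR-20b-5p and miR-17-5p differed at 2 of 23 bases. miR-93 differed from miR-17-5p at 4 of 23 bases, and miR-106b, which is 21 bases long, differed from miR-17-5p at 3 of the 21 bases they share. miR-18a was the most distant, with 4 to 7 differing bases to the other members. Whether a probe for one member also bound another was not tested.

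The members are encoded in 3 clusters. miR-18a (chr15:98588000-98588022, plus strand) and miR-20a (chr15:98588318-98588340, plus strand) lie with Mir17, Mir19a, Mir19b1 and Mir92a1 on chromosome 15. miR-20b-5p (chrX:137343239-137343261, minus strand) lies with Mir106a, Mir19b2, Mir92a2 and Mir363 on chromosome X. The mature sequence of miR-17-5p is encoded at both places, at chr15:98587861-98587883 on the plus strand and at chrX:137343615-137343637 on the minus strand, so its signal can come from either cluster. miR-93 (chr12:22156894-22156916, minus strand) and miR-106b (chr12:22157103-22157123, minus strand) lie with Mir25 inside Mcm7, the gene of a subunit of the replicative helicase, on chromosome 12. Around the clusters on chromosomes 15 and X, the nearest annotated genes were the miRNA genes named.

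The arrays of the 12-month-old rats were brighter, which bears on every value below. The measure used was the total gene signal, the background-subtracted intensity that the scanner software sums over the probes of a miRNA. Its 75th percentile lay between 67.0 and 73.8 units at 12 months and between 37.4 and 55.4 at 3 months. A two-sided exact permutation test gave p = 0.0286, which is the lowest p this design of 4 and 3 rats can reach. The software called 278 to 296 miRNAs detected per array at 12 months and 246 to 272 at 3 months. Labelling spike-ins, synthetic RNAs added before labelling, gave 10355 ± 1685 units (SD, n = 4) in the older rats and 8842 ± 421 units (SD, n = 3) in the younger ones (exact permutation p = 0.286). The local background was 21.5 to 23 units at 12 months and 22 to 23 at 3 months, and no spot was saturated. Islet markers were bright in all samples, with miR-7a ranked 1 or 2 and miR-375 between 3 and 9 on the 7 arrays. All arrays lay on 1 slide and were scanned in 1 session.

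Before any normalization between arrays, miR-106b and miR-93 were brighter in islets of older rats, miR-20a and miR-20b-5p were near equal, and miR-18a was near the detection limit. A miRNA's signal depends on its probes, so signals are compared between rats and not between members. In bulk RNA, fewer cells of a type and less RNA per cell cannot be told apart. The total gene signal of rno-miR-106b was 582, 484, 449 and 612 units in the 12-month-old rats 2, 4, 10 and 16, and 350, 439 and 320 units in the 3-month-old rats 9, 11 and 13. The ages did not overlap, and the log2 difference of 12 against 3 months was 0.52 (exact permutation p = 0.0571). That placed miR-106b with 48.2% of the 272 tested miRNAs, whose signals were also higher at 12 months without overlap. rno-miR-93, encoded next to miR-106b, had 112, 99.4, 89.9 and 120 units at 12 months and 78.3, 93.6 and 63.8 units at 3 months. Rat 10 lay below the 3-month-old rat 11, so the ages overlapped, with a log2 difference of 0.43 (exact permutation p = 0.0857).

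The signal of rno-miR-20a was 117, 131, 175 and 125 units in rats 2, 4, 10 and 16, and 90.3, 166 and 144 units in rats 9, 11 and 13. The spread within each age was far larger than the difference between them (log2 difference 0.063, exact permutation p = 0.886). Rat 10 was the highest at 12 months and rat 9 the lowest at 3 months. rno-miR-20b-5p showed the same order of rats, with 54.6, 64.8, 84.0 and 61.8 units at 12 months and 45.6, 80.5 and 70.1 units at 3 months. Its log2 difference was 0.041 (exact permutation p = 0.886). rno-miR-17-5p, the founding member of the family, had 26.7, 28.7, 32.6 and 27.4 units at 12 months and 20.01, 31.6 and 20.4 units at 3 months. The 3-month-old rat 11 lay within the range of the older rats, and the other 3-month-old rats lay below it (log2 difference 0.30, exact permutation p = 0.2).

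rno-miR-18a, the member with the other seed, gave 8.51, 10.1, 9.63 and 9.90 units at 12 months and 9.17, 10.4 and 10.8 units at 3 months. The software did not call it detected in the 12-month-old rat 2 or the 3-month-old rat 9, which left 3 of 4 and 2 of 3 arrays. Its error, as the software gives it, was between 27.5% and 40.4% of the signal, against 7.83% to 7.93% for miR-106b. The log2 difference of -0.088 was within the spread between rats (exact permutation p = 0.4). Because it was not detected on every array of either age, miR-18a was outside the 272 miRNAs tested across the array.

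**Figure D1:**
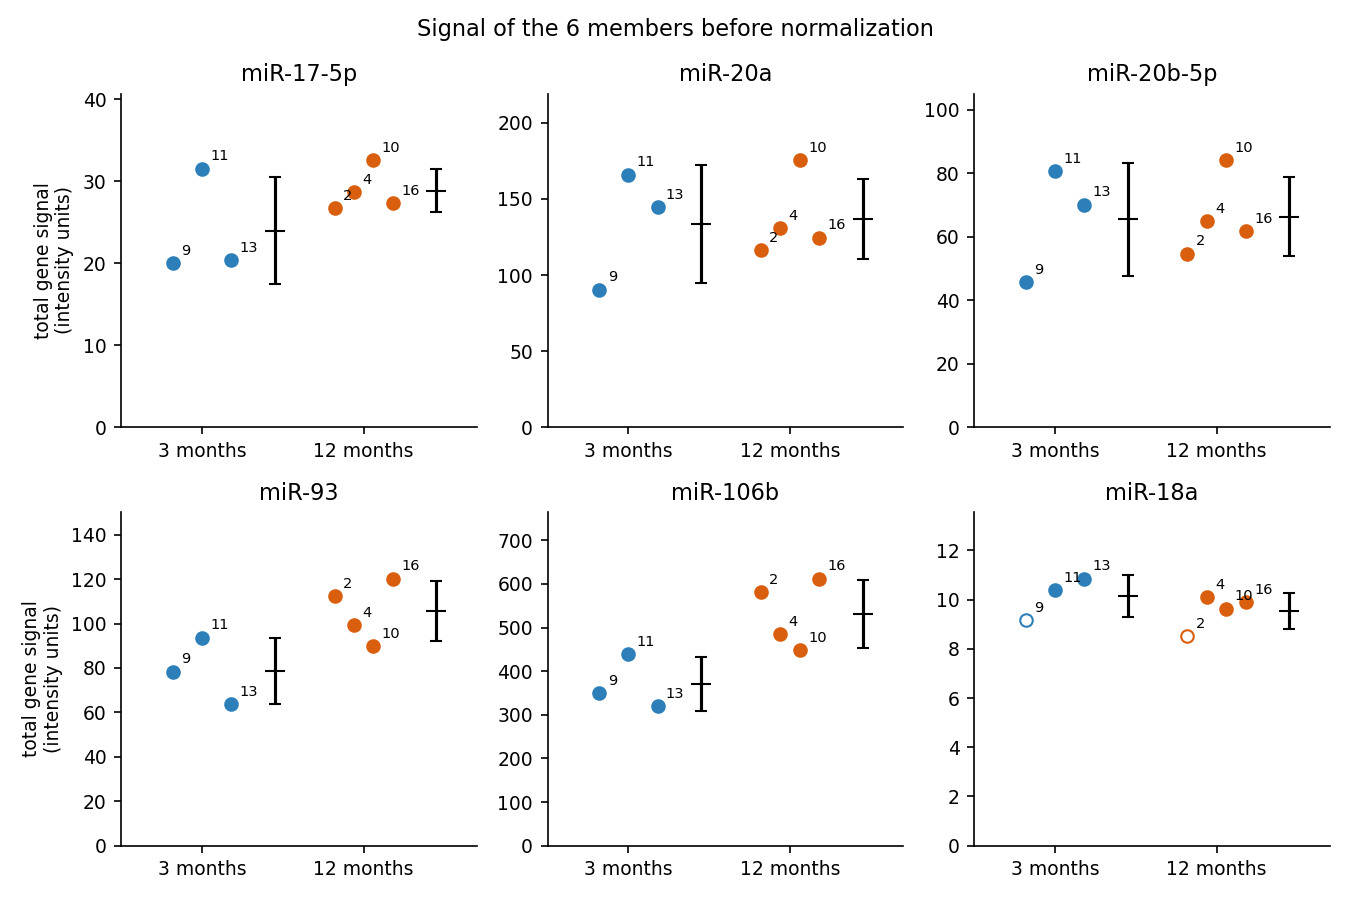
Total gene signal (intensity units, linear axis from 0) of each member in each rat at 3 months (blue) and 12 months (orange), labelled by replicate, with the mean and SD in black. Open circles mark arrays on which the software did not call the miRNA detected, and miR-106b is the member whose ages do not overlap.

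Each member was read by 2 probes with 10 spots each per array, and the probes of a member were of unequal use. One probe of miR-17-5p gave 0.448 to 1.86 units with 0 spots well above background on every array, so 93.2% to 97.8% of the signal of miR-17-5p came from its other probe. miR-93 was likewise read almost entirely by 1 probe (92.6% to 94.6% of the signal). The 2 probes of miR-20a took 33.1% to 36.0% and 64.0% to 66.9% of its signal on every array, those of miR-20b-5p 30.1% to 32.5% and 67.5% to 69.9%, and those of miR-106b 25.03% to 27.0% and 73.0% to 74.97%. For miR-18a, at most 1 of 10 spots of either probe was well above background on any array.

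After quantile normalization, which gives every array the same distribution over the 677 rat miRNAs, all 6 members had a lower mean at 12 months. The decreases were between 0.19 and 0.75 on the log2 scale, and none of the 5 tested members passed an adjusted p of 0.05. Over all tested miRNAs 1.47% passed that threshold in either direction. A lower mean was found for 42.3% of all tested miRNAs, against 5 of 5 tested members. At an unadjusted limma p below 0.05 there were 2 of 5 tested members, both lower, where 21.7% of all tested miRNAs passed in either direction and 12.5% were lower. The methods' t-test gave 0 of 5 members with an unadjusted or an adjusted p below 0.05. The median log2 difference of the 5 tested members was -0.30, and that of all 272 tested miRNAs was 0.06. The 2 below the unadjusted threshold became 3 without the 12-month-old rat 10, where miR-17-5p joined them and 12.8% of the miRNAs tested were lower at that threshold. Without the 3-month-old rat 9 they remained 2, where 31 of 273 tested miRNAs were lower at that threshold. Without any 1 of the other 5 rats they became 0, where 24 to 30 of the 272 to 276 tested miRNAs were lower, against 34 of 272 with all rats.

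miR-20b-5p had normalized log2 values of 5.48, 5.66, 6.21 and 5.77 in rats 2, 4, 10 and 16 and 5.91, 6.51 and 6.85 in rats 9, 11 and 13. Rat 10 lay above rat 9, so the ages overlapped. The log2 difference was -0.64 (standard error 0.26), a level 1.56-fold lower at 12 months, with an unadjusted limma p of 0.0393 and an adjusted p of 0.198. For miR-20a the values were 6.62, 6.55, 7.30 and 6.74 at 12 months and 6.91, 7.55 and 7.82 at 3 months. Here too the overlap came from rat 10 and rat 9, and limma gave a log2 difference of -0.62 (standard error 0.27) with an unadjusted p of 0.049 and an adjusted p of 0.226. Leaving out rat 10 moved the differences to -0.82 for miR-20a and -0.78 for miR-20b-5p, with limma adjusted p values of 0.0959 and 0.103. Leaving out the 3-month-old rat 13 moved them to -0.43 and -0.44, with limma adjusted p values of 0.567 and 0.559.

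The normalized values of miR-17-5p were 4.48, 4.48, 4.82 and 4.44 at 12 months and 4.66, 5.04 and 4.88 at 3 months. Rats 2, 4 and 16 lay within 0.04 of each other and below all 3-month-old rats, and rat 10 lay apart from them among the younger rats. The log2 difference was -0.30 (standard error 0.16, limma adjusted p = 0.353), and by limma -0.37 without rat 10 (adjusted p = 0.109) and -0.20 without the 3-month-old rat 11 (adjusted p = 0.597).

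**Figure D2:**
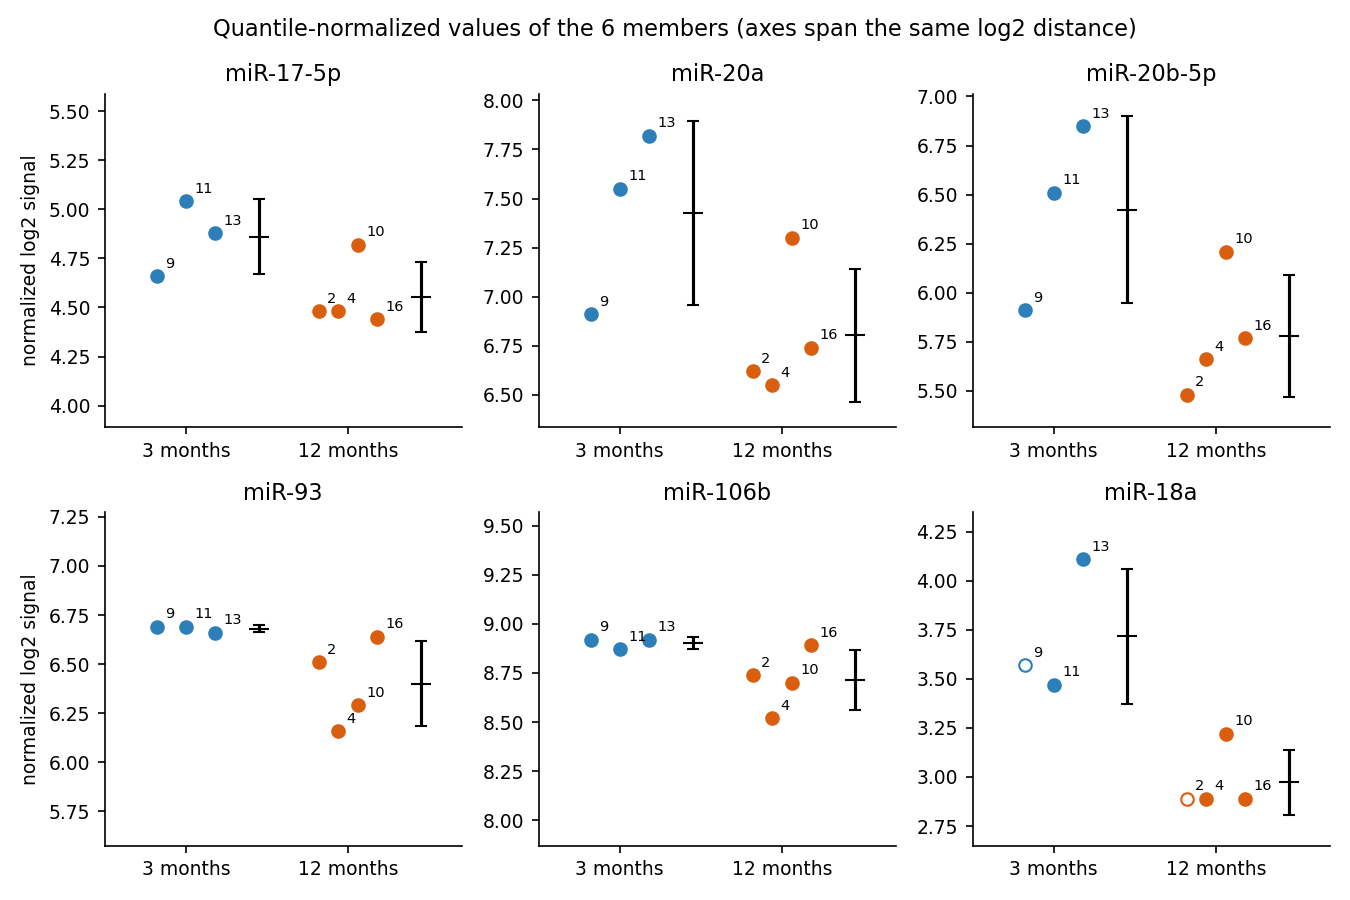
Quantile-normalized log2 signal of each member in each rat at 3 months (blue) and 12 months (orange), labelled by replicate, with the mean and SD in black and open circles where the miRNA was not detected. For miR-18a, miR-20a, miR-20b-5p and miR-17-5p, rat 10 is the highest of the 12-month-old rats, while for miR-93 and miR-106b it is not.

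For the members encoded in Mcm7 the differences were -0.28 and -0.19. The log2 ratios of the signals of miR-17-5p, miR-20a and miR-20b-5p to theirs had age differences between -0.48 and -0.14. Their exact permutation p values were between 0.229 and 0.543 before adjustment. None passed the adjusted test given below, which so few rats make hard to pass. miR-93 had normalized values of 6.51, 6.16, 6.29 and 6.64 at 12 months and 6.69, 6.69 and 6.66 at 3 months. The ages did not overlap, as at 9.56% of all tested miRNAs that were lower at 12 months, but the nearest rats, 16 and 13, were 0.02 apart. The log2 difference was -0.28 (standard error 0.16, limma adjusted p = 0.372). miR-106b had 8.74, 8.52, 8.70 and 8.89 at 12 months and 8.92, 8.87 and 8.92 at 3 months, and rat 16 lay above rat 11. At -0.19 (standard error 0.14, limma adjusted p = 0.523) its log2 difference was the smallest of the 6 members.

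miR-18a had normalized values of 2.89, 2.89, 3.22 and 2.89 at 12 months and 3.57, 3.47 and 4.11 at 3 months. The ages did not overlap, which in either direction held for 17.3% of all tested miRNAs, and the difference of -0.75 was the largest among the members (exact permutation p = 0.0286). A fit over the 307 miRNAs detected on at least 1 array gave it a limma adjusted p of 0.0838. Without normalization the difference was -0.088, as above. A background correction of the median spot signal gave -0.091 after quantile normalization. It added an offset of 50 units before the log2 step, which shrinks the difference of a signal as dim as that of miR-18a. The mean of processed spot signals, also quantile normalized, gave -0.76.

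The sign of the members' differences depended on how the arrays were scaled to each other. Quantile normalization, the 75th percentile of the miRNAs detected on all arrays or of all rat miRNAs, and scaling to miR-7a gave negative differences for all 6 members, with miR-20a between -0.81 and -0.57. With no normalization all members but miR-18a had a positive difference, from 0.041 for miR-20b-5p to 0.52 for miR-106b, where 91.5% of all tested miRNAs also had a higher mean at 12 months. Scaled to the labelling spike-ins, miR-17-5p, miR-93 and miR-106b were positive (0.081, 0.22 and 0.31) and miR-20a, miR-20b-5p and miR-18a negative (-0.15, -0.17 and -0.30), where 86.8% of all tested miRNAs had a higher mean. Scaled to the hybridisation spike-ins, which are added after labelling, the values were close to those with no normalization (90.8% of all tested miRNAs had a higher mean). The 12-month-old signals of miR-93 and miR-106b then lay above all 3-month-old signals (log2 differences 0.41 and 0.50, exact permutation p = 0.0286 for each). With no normalization, 48.2% of all tested miRNAs were higher without overlap, and that share was not computed for the hybridisation spike-ins. Those scalings move the median difference of all tested miRNAs from 0.06 with quantile normalization to 0.79 with none, 0.58 with labelling spike-ins, 0.77 with hybridisation spike-ins, 0.16 with the 75th percentile of all rat miRNAs and -0.08 with miR-7a. Relative to that median, every member had a lower difference under each of these scalings, which for a scaling by 1 factor per array follows from the signals themselves. Under the unadjusted limma threshold, 25 of all tested miRNAs were higher and 34 lower with quantile normalization, against 189 and 4 with none, 88 and 6 with labelling spike-ins, 194 and 2 with hybridisation spike-ins, and 8 and 28 with miR-7a.

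**Figure D3:**
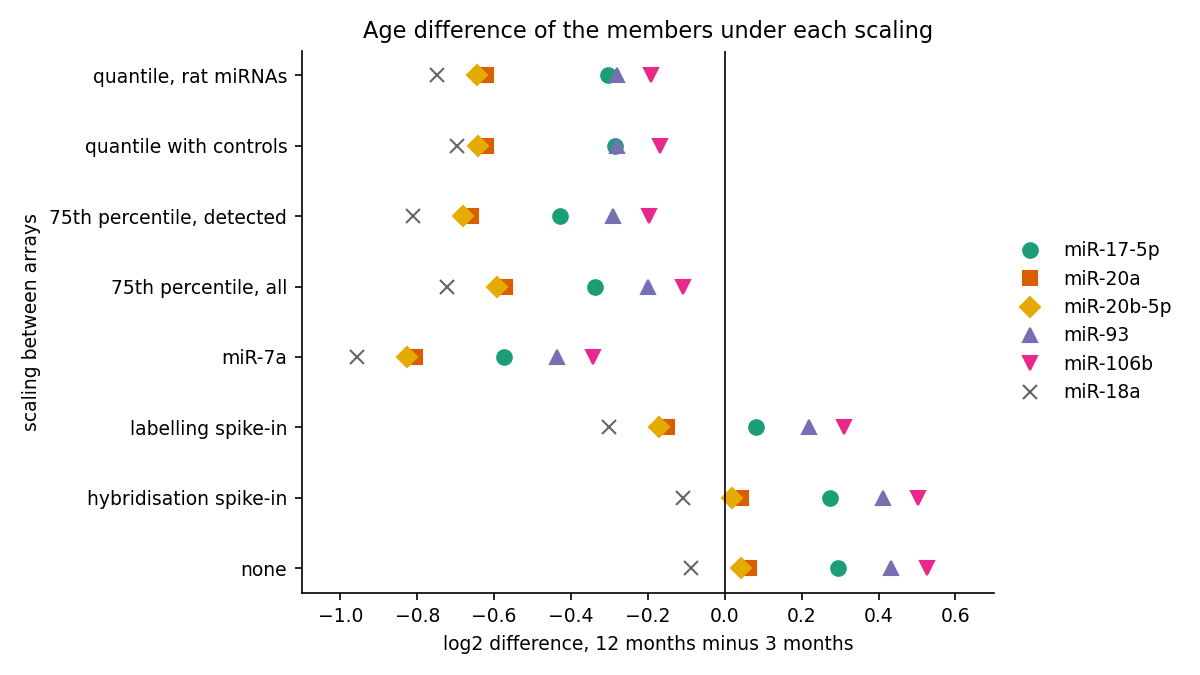
Mean log2 difference of 12-month-old minus 3-month-old rats for each member (symbols) under 8 ways of scaling the arrays to each other (rows), with 0 marked by a line. The order of the members is the same in every row, from miR-18a at the left to miR-106b at the right, while the position of 0 shifts.

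The ratio of the total gene signals of 2 members on the same array does not change when each array is scaled by 1 factor, though quantile normalization can change it. All 15 pairs of members were compared between the ages, and none had an exact permutation p below 0.05 after adjustment over the 15 pairs (smallest adjusted p = 0.429). The lowest exact permutation p for 4 and 3 rats is 0.0286, and the 1 pair that reached it has that adjusted p. No pair could pass unless many reached the lowest p together, so this outcome does not show that the ratios were equal. The ages did not overlap for 2 pairs. The signal of miR-106b over that of miR-18a was 68.4, 47.9, 46.6 and 61.8 at 12 months and 38.1, 42.3 and 29.5 at 3 months, a log2 difference of 0.61 (exact permutation p = 0.0286 before adjustment). The signal of miR-93 over that of miR-18a was 13.2, 9.84, 9.33 and 12.1 at 12 months and 8.54, 9.004 and 5.89 at 3 months, a log2 difference of 0.52 (exact permutation p = 0.0571 before adjustment). Both ratios rest on the dim signal of miR-18a. From quantile-normalized values they differed by 0.56 and 0.47, with unadjusted exact permutation p values of 0.0571 and 0.171.

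The ratios also showed which members varied together across rats. miR-20a over miR-20b-5p was between 1.98 and 2.13 on all 7 arrays, with an SD of 0.036 on the log2 scale. These members lie on different chromosomes. miR-93 over miR-106b, both encoded in Mcm7, was between 0.193 and 0.224, with an SD of 0.074. The ratio of miR-17-5p to miR-20a had a log2 SD of 0.25. The error of miR-17-5p, as the software gives it, was 12.9% to 19.3% of its signal, against 7.55% to 8.19% for miR-20a. The parts of measurement error and of shared probe binding in these ratios were not tested.

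The ratio of miR-20a to miR-93 spanned 1.04 to 2.26. It was 1.04, 1.32, 1.95 and 1.04 in the 12-month-old rats 2, 4, 10 and 16, and 1.15, 1.77 and 2.26 in the 3-month-old rats 9, 11 and 13. Rat 10 lay with the 3-month-old rats 11 and 13, and rat 9 with the older rats, so the age difference of -0.37 was within the spread (log2 SD 0.43 and 0.49, n = 4 and 3, exact permutation p = 0.286). Acinar miRNAs had a similar order of rats, and endocrine miRNAs nearly the opposite order. The summed signal of miR-216a, miR-216b-5p, miR-216b-3p and miR-217, which mark pancreatic exocrine cells, was 149, 849, 1456 and 297 units in rats 2, 4, 10 and 16, and 889, 1101 and 1732 units in rats 9, 11 and 13. The rats 13, 10 and 11 were the highest in both measures, in the same order, and rats 2 and 16 the lowest. The summed signal of miR-375, miR-7a and miR-7b, which mark endocrine cells, was 26727 units in rat 13 and 64620 and 62178 units in rats 2 and 16. Apart from rat 9, with 29982 units, its order was the reverse of that of the ratio. The part of acinar or endocrine RNA in the ratio was not tested.

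**Figure D4:**
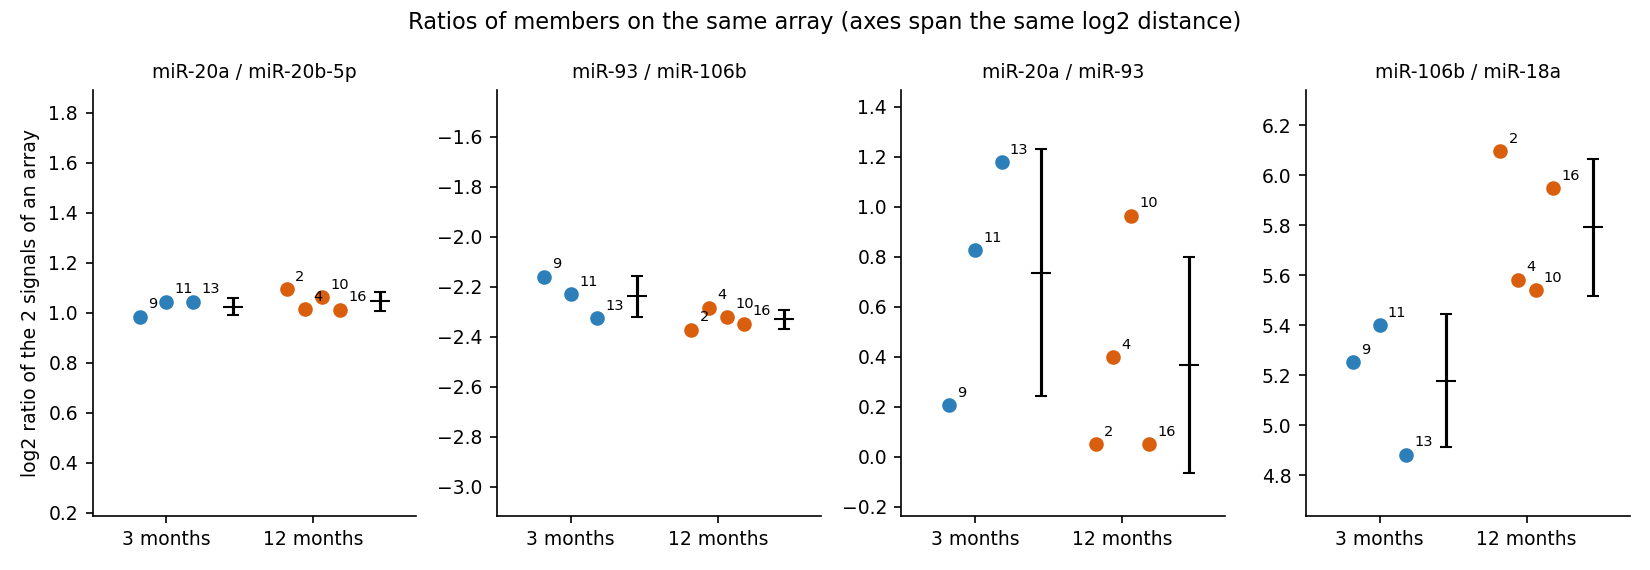
Log2 ratio of the total gene signals of member pairs on the same array at 3 months (blue) and 12 months (orange), each rat labelled by its replicate, with the mean and SD in black. All axes span the same log2 distance, so the ratios of miR-20a to miR-20b-5p and of miR-93 to miR-106b are visibly tighter than that of miR-20a to miR-93, in which rat 10 lies among the 3-month-old rats.

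Markers of other cells were read in the same fit, in which no listed marker passed an adjusted p of 0.05. At an unadjusted p below 0.05, 9.19% of all tested miRNAs were higher and 12.5% lower at 12 months, and 57.7% of all had a higher mean. The summed signals below are total gene signals before normalization, where 91.5% of all tested miRNAs had a higher mean at 12 months. Of the 4 acinar miRNAs 3 were tested, and all 3 were lower at 12 months with an unadjusted limma p below 0.05 (median log2 difference -2.11, smallest adjusted p = 0.163). Their summed signal was 149 to 1456 units at 12 months and 889 to 1732 at 3 months, and without rat 10 it was 149 to 849 units at 12 months. All 5 mesenchymal miRNAs (miR-143, miR-145, miR-199a-5p, miR-199a-3p and miR-214) had a higher mean at 12 months, 4 of them with an unadjusted p below 0.05 (median 1.16, summed signal 2629 to 3645 units against 736 to 1711). Of the leukocyte miRNAs, 4 were tested, 3 had a higher mean and 2 an unadjusted p below 0.05 (summed signal 310 to 663 units against 142 to 222). The 2 endothelial miRNAs (summed signal 2173 to 2794 units against 1017 to 1754) and the 2 erythroid miRNAs (144 to 289 against 86.7 to 224) had medians of 0.32 and -0.52. An unadjusted limma p below 0.05 was found for 1 of the endothelial and 0 of the erythroid miRNAs. The endothelial miR-126* had a log2 difference of 0.58 (limma adjusted p = 0.0783) and miR-126 one of 0.068. Endocrine miR-375, miR-7a and miR-7b had a median of -0.20, with 0 of 3 below an unadjusted limma p of 0.05. Their summed signal was 33979 to 64620 units against 26727 to 35489. miR-7a ranked 1 or 2 on every array, so quantile normalization left its value little room to differ. No listed marker was undetected on all arrays, the smallest limma adjusted p was 0.0608, and the part of these cells in the members' values was not tested.

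The 3 clusters also encode 5 listed miRNAs with the miR-19 or the miR-25/92/32 seeds. Of these, 4 were tested and all 4 had a lower mean at 12 months, as had 42.3% of all tested miRNAs. An unadjusted limma p below 0.05 was found for 3 of the 4, where 12.5% of all tested miRNAs were lower at that threshold. After adjustment, 0 of the 4 passed. Their median difference was -0.78. The other 2 listed miRNAs with these seeds, miR-92b and miR-32, lie outside the 3 clusters. miR-19b, which is encoded on chromosomes 15 and X, had a difference of -0.96 (standard error 0.25, limma adjusted p = 0.07), and miR-19a, from chromosome 15, one of -0.82 (standard error 0.23, adjusted p = 0.0758). The ages did not overlap for either, and 9.56% of all tested miRNAs were likewise lower at 12 months without overlap. miR-92a had a difference of -0.75 (adjusted p = 0.176) and miR-92b one of -0.92 (standard error 0.23, adjusted p = 0.0608). miR-25, the third miRNA inside Mcm7, had a difference of -0.25 (standard error 0.15, limma adjusted p = 0.416), close to those of miR-93 and miR-106b. miR-32, which shares the seed of miR-25, had a difference of 0.25 (limma adjusted p = 0.435). miR-363 was detected on 1 of 4 and 0 of 3 arrays and was not tested.

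With no normalization between arrays, miR-19a, miR-19b and miR-92a had differences of -0.11, -0.18 and -0.041, and miR-25 one of 0.47. The opposite strands of the hairpins were not measurable. Of 16 such strands on the array, 16 were called detected on no array.

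**Figure D5:**
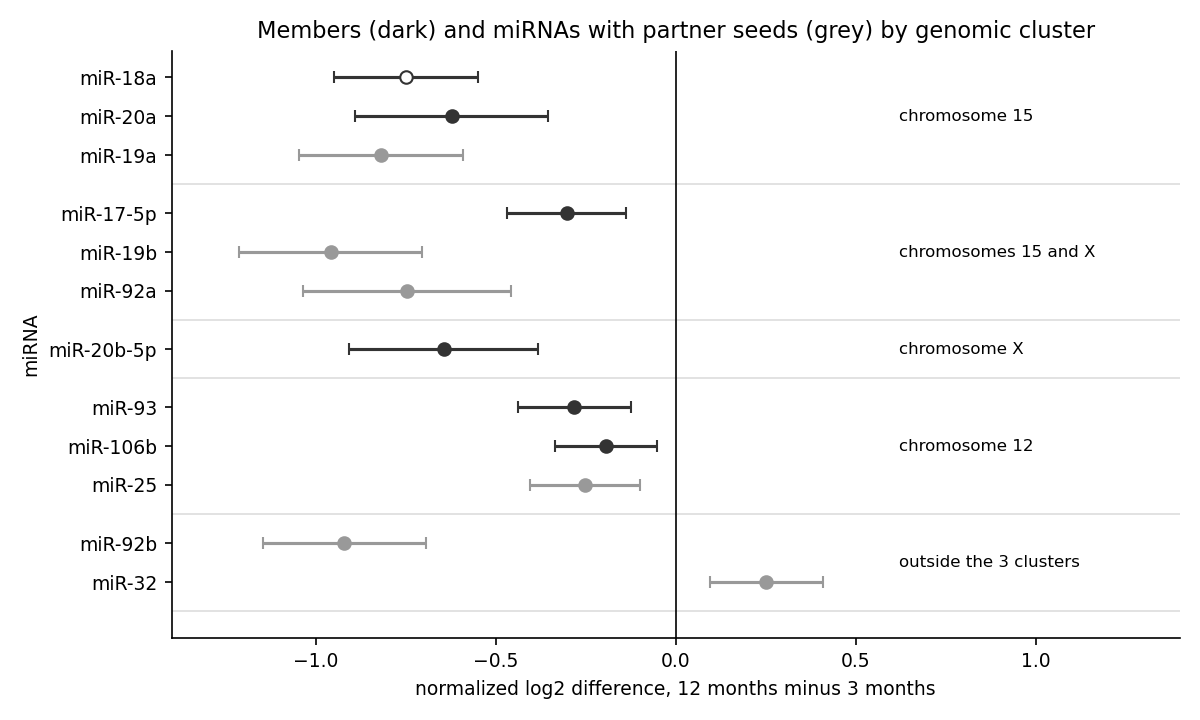
Quantile-normalized log2 difference of 12-month-old minus 3-month-old rats (horizontal axis, bars are the limma standard error) for the members (dark) and the tested miRNAs with partner seeds (grey), grouped by the chromosome of their cluster. miR-93, miR-106b and miR-25 on chromosome 12 lie between -0.28 and -0.19, and the miRNAs of chromosomes 15 and X between -0.96 and -0.30; the open circle marks miR-18a, whose standard error comes from the fit over miRNAs detected on at least 1 array.

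Likeness across the 7 rats was described by the root mean square difference of centred normalized log2 values. The nearest of all miRNAs to miR-20a was miR-20b-5p (0.0765) and the next was the cluster partner miR-92a (0.106), while the median distance of miR-20a to all tested miRNAs was 0.57. For miR-93 and miR-106b the nearest was the other member (0.0737), followed by miR-200c (0.102) for miR-93 and by miR-324-3p (0.0817) for miR-106b. miR-17-5p was nearest to miR-30a (0.139), which is no member and lies in none of the 3 clusters, and miR-18a to miR-3085 (0.135), followed by miR-19a (0.142). Among the 267 tested non-members, miR-378 (0.116), miR-219-5p (0.134), miR-365 (0.15), miR-99a (0.166) and miR-25 (0.17) were nearest to the mean profile of the 6 members. These distances share the 7 arrays and the normalization, and under 75th-percentile scaling 3 of those 5 were again among the nearest 5.

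The 2 rows of the slide each held both ages. Within row 1 (rats 2 and 4 against rat 9) the normalized differences were -0.18 for miR-17-5p, -0.32 for miR-20a, -0.34 for miR-20b-5p, -0.36 for miR-93, -0.30 for miR-106b and -0.68 for miR-18a. Within row 2 (rats 10 and 16 against rats 11 and 13) they were -0.33, -0.66, -0.69, -0.21, -0.099 and -0.74 in the same order. All 6 members thus had the same sign in both rows. The rows divide the same rats and normalized values as above, so they are not separate evidence. The share of all tested miRNAs with the same sign in both rows was not computed. With the row as a block, the differences of the tested members were between -0.55 and -0.18.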

How the data were processed

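Agilent single-colour miRNA arrays had been run on islet RNA of 12-month-old rats (4 arrays) and 3-month-old rats (3 arrays). The authors extracted spot intensities with Agilent Feature Extraction (version 10.7.3.1) and deposited, per array, background-subtracted intensities on a linear scale with a detection flag. They also deposited a matrix of normalized log2 values for 307 miRNAs, used here only as an alternative. Its order of miRNAs on each array equals that of the total gene signal (Spearman 1), and each column has a median of 6.44. From the total gene signals of the 677 rat miRNAs, without control features, log2 values were computed with a floor of 1 and quantile normalized together. A miRNA was kept if all arrays of either age detected it, and the 272 kept were tested with limma (version 3.58.1, R 4.3.3; lmFit and eBayes with a constant prior) and Benjamini-Hochberg adjustment over all 272. Single values were tested with exact permutation over the 35 splits of 7 rats into 4 and 3. All p values are two-sided. Nothing in the labels says how replicate numbers were given, and the rats are taken as separate animals.

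The miRNAs named are the 6 members, their cluster partners and opposite strands, the 5 non-members nearest to their mean profile, and markers of islet, acinar, mesenchymal, endothelial, leukocyte and erythroid cells. The members and lists were chosen with earlier results of these data known. Of the 5 leukocyte markers, 4 had a name on the array. Alternatives covered the normalization, signal summary, background correction, filter, floor, variance model, test, weights, slide row, deposited matrix and each rat left out. The 2 scalings to spike-ins were added after seeing the data, and the summed spike-in signals were 4.30% to 9.12% (labelling) and 0.5% to 1.18% (hybridisation) above the values in the file headers. The pipeline was tested on simulated data. The number of arrays limits the precision. Coordinates are those of RefSeq for GRCr8, while the array's header names an older assembly. The mRNA arrays and other experiments of the study were not analysed here.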

Additional observations from a re-analysis of the deposited data

Results flagged for a closer look

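In the 4 rats aged 12 months, 27 measures of the members were checked for a rat far from the others by Dixon's ratio, the gap to the nearest rat over the range, against Dixon's critical value for 4 samples. Chance exceeds it in about 1 in 20 groups, and 3 measures did, each with rat 10 apart. The measures are signals and ratios of the same members in the same rats, so they are not independent. Their count therefore cannot be set against that rate. The normalized log2 signal of miR-17-5p gave a ratio of 0.902, with rat 10 at 4.82 and the other rats between 4.44 and 4.48. That of miR-18a gave a ratio of 1, with rat 10 at 3.22 and the other rats at the same value of 2.89, which they share because miR-18a had the same rank of 277 on their arrays. The log2 ratio of miR-20b-5p to miR-18a gave 0.914, with rat 10 at 3.12 and the others between 2.64 and 2.68. The total gene signals of the 6 members before normalization stayed below the critical value, with ratios between 0.216 and 0.754. Rat 10 also had the highest summed acinar signal of its age, 1456 units against 149 to 849 units, and its part in these values was not tested.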

How the results depend on the processing

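The differences of the 6 members kept their sign under quantile normalization with control features, both 75th-percentile scalings, miR-7a, the mean spot signal, normexp, the other floor and the deposited matrix. Those of the 5 tested members, but not miR-18a, were also run with the filter first and with the slide row, and kept their sign. The looser filters, detection on all arrays, a variance trend and the t-test use the same normalized values. The differences could not change there, only their p values. With no normalization between arrays they were reversed for miR-106b (0.52), miR-93 (0.43), miR-17-5p (0.30), miR-20a (0.063) and miR-20b-5p (0.041), and -0.088 for miR-18a. Scaling to hybridisation spike-ins, added after seeing the data, gave 0.50, 0.41, 0.27, 0.041 and 0.0196 in the same order, and -0.11 for miR-18a. Labelling spike-ins, also added then, reversed miR-17-5p (0.081), miR-93 (0.22) and miR-106b (0.31) and gave -0.30 for miR-18a. Array weights gave -0.45 for miR-17-5p, -0.72 for miR-20a and -0.72 for miR-20b-5p, with limma adjusted p values of 0.041, 0.0392 and 0.0392, where 48 of all 272 tested miRNAs passed, 27 of them lower, and gave -0.17 for miR-93 and -0.10 for miR-106b (adjusted p = 0.42 and 0.589). Normexp on the median spot signal gave smaller differences for miR-17-5p (-0.069), miR-20b-5p (-0.26), miR-93 (-0.12), miR-20a (-0.37) and miR-18a (-0.091), and -0.21 for miR-106b. Normexp added an offset of 50 units before the log2 step, which by construction shrinks the log2 differences of dim signals. The deposited matrix gave -0.36 for miR-18a, and the cause of that value was not tested.

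Without 1 rat, the differences ranged from -0.41 to -0.20 (miR-17-5p), between -0.87 and -0.43 (miR-20a), -0.91 to -0.44 (miR-20b-5p), -0.37 to -0.21 (miR-93), -0.24 to -0.14 (miR-106b) and -0.87 to -0.56 (miR-18a), with no adjusted p below 0.05. The age difference of the log2 ratio of miR-20a to miR-18a, 0.15 with all rats, ranged from -0.038 to 0.31, and that of miR-20b-5p to miR-18a, 0.13 with all rats, from -0.0396 to 0.28, both negative without the 3-month-old rat 9.

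The count of miRNAs with an adjusted limma p below 0.05 was 4, against 21 (75th percentile of detected miRNAs), 10 (of all rat miRNAs), 15 (miR-7a), 171 (none), 2 (normexp), 1 (detected on all arrays), 48 (array weights), 8 (deposited matrix), 37 (labelling spike-ins), 174 (hybridisation spike-ins) and 10 (without rat 10). At an unadjusted p below 0.05 it was 59, against 36 (miR-7a), 193 (none), 89 (array weights), 94 (labelling spike-ins) and 196 (hybridisation spike-ins). No paired analysis was possible because the 2 ages share no replicate numbers. The array weights lower the influence of arrays that differ from the rest, and miR-18a could not be tested where it failed the filter. Signals of miR-18a and of 1 probe each of miR-17-5p and miR-93 lay near background, which limits what their differences can show.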
